A study of Mus musculus with 8 samples.

Results

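Hypoxia-inducible factor (HIF) target genes were compared in liver between 4 METTL3-HKD and 4 METTL3-Flox mice. They comprised Hif1a, Egln1, Egln3, Vegfa, Adm, Bnip3, Ddit4, Ndrg1, P4ha1 and Slc2a1, and all 10 were found among the 54532 genes of the deposited table. Hif1a encodes a subunit of HIF itself and is counted among the HIF target genes here only as a member of the list. These genes, and the pathway and marker lists used below, were chosen by name with earlier results of these data known. METTL3-HKD mice carried METTL3 flox/- and Alb-iCre, a Cre recombinase under the albumin promoter, which is active mainly in hepatocytes, and the study describes them as heterozygous for METTL3, a writer of N6-methyladenosine on RNA. Whether the minus stands for a wild-type or a null allele is not given in the sources used here. METTL3-Flox mice carried METTL3 flox/flox, with no Cre named, and came from the same litters. All 8 mice had undergone 1 h of warm ischemia of part of the liver and 6 h of reperfusion before the liver was taken. No sham-operated mouse was among them, so the values compare the groups after injury and measure no change from before it. The age of the 8 mice is not given in the labels. Each liver had 15861245 to 18434488 reads on genes. All 10 genes had a mean of at least 0.1 FPKM (a level of reads corrected for gene length and library size) and were tested among 16645 genes, by limma on the log2(FPKM + 0.1) scale. Mettl3 itself averaged 1.33 ± 0.181 FPKM in the METTL3-HKD group and 1.50 ± 0.282 FPKM in the METTL3-Flox group (SD, n = 4 each, limma), with an adjusted p of 0.556. The groups overlapped, so this value did not check the genotype labels. It covers the whole gene in all cells of the liver, not the floxed exon 4 in hepatocytes alone.

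HIF is a transcription factor made of an oxygen-labile alpha subunit and a stable beta subunit. When oxygen is present, prolyl hydroxylases of the Egln family mark the alpha subunit for the von Hippel-Lindau ubiquitin ligase, which sends it to the proteasome, and when oxygen is short the alpha subunit escapes and switches on genes of glucose uptake, glycolysis, vessel growth, matrix synthesis and mitochondrial turnover. Several of these genes also answer to other signals, such as cytokines and the stress kinases, and HIF is regulated mainly at the level of its protein, which was not measured here. In the liver the gradient of oxygen along the sinusoid makes cells around the central vein the most hypoxic, and clamping of the portal branches adds a hypoxic period before reperfusion.

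Of the HIF target genes 7 were higher in METTL3-HKD mice and none was lower, and the difference varied widely from gene to gene. Slc2a1, Ndrg1, Adm and Egln3 were 3.47-fold to 5.07-fold higher by the ratio of means, Hif1a was 2.10-fold higher, and Egln1 and P4ha1 were 1.53-fold and 1.54-fold higher. Ddit4, Vegfa and Bnip3 did not pass the test, with ratios of 1.37, 1.03 and 0.907. In all, 7 of the 10 genes were called higher at an adjusted p under 0.05, against 9.05% of all tested genes, and 0 were called lower, against 6.63% of all tested genes (limma, Benjamini-Hochberg adjustment over all tested genes). The number with an unadjusted p under 0.05 was 8 of 10, against 5305 of all 16645 tested genes. With a log2 fold change of at least 1 as a second condition, 5 of the 10 passed, against 4.7% of all tested genes. The median log2 fold change was 0.81 over the 10 genes and -0.0028 over all tested genes. The lowest METTL3-HKD liver exceeded the highest METTL3-Flox liver for 7 genes, against 12.7% of all tested genes. Since the genes and lists were chosen with earlier results known, such shares describe them and are not a test of them. The genome-wide counts moved with single livers, from 1506 higher genes to between 747 and 943, and from 1104 lower genes to between 355 and 571, when METTL3-HKD liver 1 or 2 or METTL3-Flox liver 2, 3 or 4 was left out. They also moved with the scaling: with each library scaled to its reads on genes, which shifted the median of all genes by 0.20 on the log2 scale, 2309 genes were called higher and 374 lower.

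**Figure D1:**
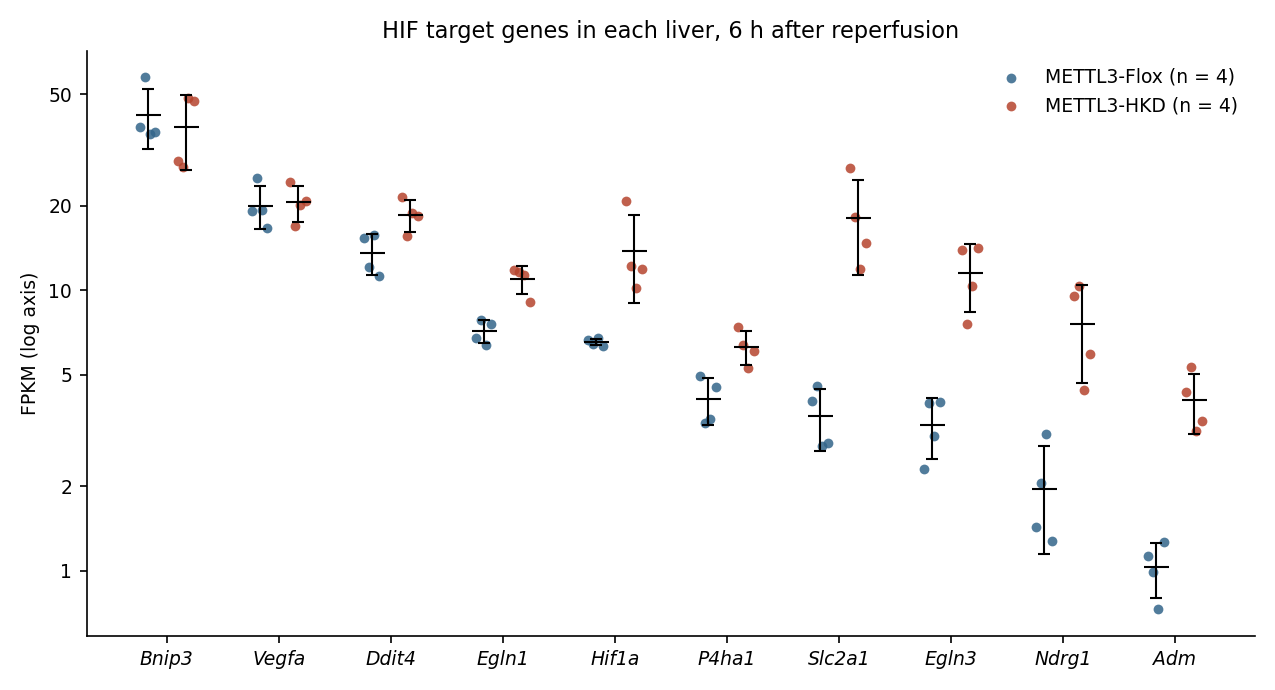
FPKM of the 10 HIF target genes on a log axis, with a point for each liver (METTL3-Flox in blue, METTL3-HKD in red, n = 4 each) and the mean and SD in black, ordered by the METTL3-Flox mean. The groups lie apart for Egln1, Hif1a, P4ha1, Slc2a1, Egln3, Ndrg1 and Adm, and overlap for Bnip3, Vegfa and Ddit4.

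Sequences upstream of the transcription start are shown for Slc2a1, Adm and Egln3, whose differences between the groups were among the largest. They are also shown for Hif1a, and for Vegfa and Bnip3, which differed little. HIF recognises a short core, here searched as ACGTG and as GCGTG on both strands, and a match is only a description of the letters. RefSeq promoter windows (GRCm38.p6) were at hand for 9 of the 10 genes, and the 250 bases before each start are given 5′ to 3′ on the strand of the gene, with matches in capitals. A match to the core on the opposite strand reads CACGT or CACGC.
Slc2a1 (chr4:119108495-119108744, plus strand): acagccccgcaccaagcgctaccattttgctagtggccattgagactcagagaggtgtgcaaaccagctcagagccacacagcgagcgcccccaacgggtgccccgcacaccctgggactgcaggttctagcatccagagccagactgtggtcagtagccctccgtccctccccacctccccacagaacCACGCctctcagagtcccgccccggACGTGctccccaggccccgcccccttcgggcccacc
Adm (chr7:110627407-110627656, plus strand): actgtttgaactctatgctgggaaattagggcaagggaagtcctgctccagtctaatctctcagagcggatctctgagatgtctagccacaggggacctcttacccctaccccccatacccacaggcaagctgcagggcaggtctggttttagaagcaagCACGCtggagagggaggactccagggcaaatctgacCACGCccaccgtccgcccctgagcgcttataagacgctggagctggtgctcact
Egln3 (chr12:54203875-54204124, minus strand): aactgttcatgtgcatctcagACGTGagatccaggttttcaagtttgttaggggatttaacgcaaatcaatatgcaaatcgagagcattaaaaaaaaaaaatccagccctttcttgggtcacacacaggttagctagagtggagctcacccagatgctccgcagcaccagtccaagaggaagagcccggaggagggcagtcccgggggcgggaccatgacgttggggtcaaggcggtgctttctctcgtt
Hif1a (chr12:73907617-73907866, plus strand): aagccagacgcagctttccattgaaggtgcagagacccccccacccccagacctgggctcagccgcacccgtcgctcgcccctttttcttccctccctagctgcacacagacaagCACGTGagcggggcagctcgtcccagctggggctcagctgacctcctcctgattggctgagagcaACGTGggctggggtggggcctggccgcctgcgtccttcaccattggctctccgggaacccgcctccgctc
Vegfa (chr17:46032378-46032627, minus strand): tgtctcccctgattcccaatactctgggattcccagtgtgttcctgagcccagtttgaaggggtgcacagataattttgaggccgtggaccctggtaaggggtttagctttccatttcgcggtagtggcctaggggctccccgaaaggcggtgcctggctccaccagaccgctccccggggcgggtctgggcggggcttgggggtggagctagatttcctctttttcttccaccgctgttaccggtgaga
Bnip3 (chr7:138909507-138909756, minus strand): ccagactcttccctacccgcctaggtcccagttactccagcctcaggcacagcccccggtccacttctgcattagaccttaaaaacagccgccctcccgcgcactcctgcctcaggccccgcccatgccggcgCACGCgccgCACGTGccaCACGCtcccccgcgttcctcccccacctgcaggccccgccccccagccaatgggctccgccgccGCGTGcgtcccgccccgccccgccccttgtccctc

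The window of Bnip3 held 5 matches, with first bases at -117, -108, -107, -99 and -35 from the start, and those at -108 and -107 overlap in the palindrome CACGTG. The window of Hif1a held 3 matches, of which those at -135 and -134 form the same palindrome. This window precedes a RefSeq start that lies inside the listed gene, downstream of its first annotated base. Slc2a1 held an opposite-strand GCGTG at -61 and ACGTG at -36, Adm held GCGTG on the opposite strand at -90 and at -54, and Egln3 held ACGTG at -229. No match lay in the window of Vegfa shown, while a second RefSeq start, also inside the listed gene, had 2 matches in its own window. Egln1 and Ddit4 had 2 matches each and P4ha1 had 3. Counting both starts of Vegfa, 9 of 10 windows held a match to either form, against 38.6% of all 32851 windows of this length, and against 52.3% of the 18364 windows with at least the GC content of the least GC-rich window among these genes. The median GC content was 66.4% in the windows of these genes and 52.4% in all windows. The gene with the most matches, Bnip3, differed little between the groups, as did Vegfa, with no match in the window shown. Egln3, with a single match, was higher in METTL3-HKD mice, as were Slc2a1, Adm and Hif1a, with more. Whether the number of matches goes with the difference was not tested.

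The sensor and the switch were described first. Hif1a (ENSMUSG00000021109, chromosome 12, 73901375 to 73947530, plus strand, GRCm38) encodes the oxygen-labile alpha subunit HIF-1α. It had an FPKM of 20.7, 12.2, 10.2 and 11.9 in the METTL3-HKD livers and of 6.62, 6.44, 6.75 and 6.34 in the METTL3-Flox livers, each from liver 1 to liver 4. The METTL3-Flox livers were nearly alike, with a coefficient of variation of 2.78%, the lowest of the 10 genes, and the METTL3-HKD livers were all above them, liver 1 by the widest margin. The means were 13.7 ± 4.74 and 6.54 ± 0.182 FPKM (SD, n = 4 each), log2 fold change 1.01 with standard error 0.195 (limma, adjusted p = 0.0133). Without METTL3-HKD liver 1 the log2 fold change was 0.79 with an adjusted p of 0.00629 from limma, so the gene kept the call and fell under a log2 fold change of 1. Leaving out METTL3-Flox liver 2 or 4 gave 1.00 and 0.99, both under 1 before rounding. The log2 fold change of Hif1a was also under 1 with a pseudocount of 1 FPKM and with array quality weights.

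Egln1 and Egln3 encode the prolyl hydroxylases PHD2 and PHD3, which mark HIF-α for destruction and are themselves induced by HIF, as a negative feedback. Egln1 (ENSMUSG00000031987, chromosome 8, 124908587 to 124949324, minus strand) had an FPKM of 11.8, 11.6, 11.3 and 9.09 in the METTL3-HKD livers and of 6.74, 7.82, 6.41 and 7.61 in the METTL3-Flox livers, each from liver 1 to liver 4. The groups were narrow and did not overlap. Its log2 fold change was 0.61 with standard error 0.114 (limma, adjusted p = 0.0121). Egln3 (ENSMUSG00000035105, chromosome 12, 54178981 to 54203860, minus strand) had an FPKM of 14.0, 7.58, 10.3 and 14.1 in the METTL3-HKD livers and of 2.30, 3.95, 3.01 and 4.01 in the METTL3-Flox livers, each from liver 1 to liver 4. Its lowest METTL3-HKD liver still lay well above its highest METTL3-Flox liver. The log2 fold change was 1.75 with standard error 0.240 (limma, adjusted p = 0.00446).
The ratio of Egln3 to Egln1 in FPKM, which no scaling of the library can change, was 1.18, 0.653, 0.914 and 1.56 in METTL3-HKD livers 1 to 4 and 0.341, 0.506, 0.471 and 0.528 in METTL3-Flox livers 1 to 4. All METTL3-HKD livers had the higher ratio, and Egln3 passed Egln1 in 2 of them. The mean ratio was 1.08 ± 0.386 (SD, n = 4) against 0.461 ± 0.0833 (SD, n = 4), with p = 0.0286 in a two-sided exact permutation test, the smallest p that 4 livers against 4 allow. This ratio, like that of Hif1a to Epas1, was chosen after the values had been seen.

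Slc2a1, Ndrg1 and Adm had the largest differences between the groups. Slc2a1 (ENSMUSG00000028645, chromosome 4, 119108711 to 119137983, plus strand) encodes GLUT1, a glucose transporter of low abundance in resting hepatocytes. It had an FPKM of 27.2, 18.2, 11.9 and 14.8 in the METTL3-HKD livers and of 4.03, 4.55, 2.80 and 2.85 in the METTL3-Flox livers, each from liver 1 to liver 4. Every METTL3-HKD liver was far above every METTL3-Flox liver, and liver 1 was the highest. The means were 18.0 ± 6.65 and 3.56 ± 0.875 FPKM (SD, n = 4 each), log2 fold change 2.27 with standard error 0.259 (limma, adjusted p = 0.00281). Among all tested genes its level moved from percentile 60.9 in METTL3-Flox mice to percentile 87.7 in METTL3-HKD mice.
Ndrg1 (ENSMUSG00000005125, chromosome 15, 66929318 to 66969640, minus strand) encodes a cytoplasmic protein known as a marker of hypoxia and of differentiation. It showed an FPKM of 9.54, 10.4, 4.40 and 5.91 in the METTL3-HKD livers and of 1.43, 2.06, 3.08 and 1.28 in the METTL3-Flox livers, each from liver 1 to liver 4. METTL3-HKD livers 1 and 2 were high, livers 3 and 4 were lower, and METTL3-Flox liver 3 came closest to them from below. The gene had a log2 fold change of 1.89 with standard error 0.334 (limma, adjusted p = 0.0104) and the widest interval of the 10 genes, from 1.13 to 2.64 (95% interval).
Adm (ENSMUSG00000030790, chromosome 7, 110627661 to 110629820, plus strand) encodes the vasodilator peptide adrenomedullin. It had an FPKM of 4.33, 5.31, 3.15 and 3.42 in the METTL3-HKD livers and of 1.13, 0.994, 0.731 and 1.27 in the METTL3-Flox livers, each from liver 1 to liver 4. It was the least abundant of the genes in both groups, with 18 to 33 reads in a METTL3-Flox liver and 92 to 159 in a METTL3-HKD liver, and the groups did not overlap. Its log2 fold change was 1.87 with standard error 0.207 (limma, adjusted p = 0.00245), the smallest adjusted p of the 10.

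P4ha1 (ENSMUSG00000019916, chromosome 10, 59323296 to 59373304, plus strand) encodes the catalytic subunit of collagen prolyl 4-hydroxylase, an enzyme of the same oxygen-dependent family as the Egln proteins that acts on collagen. It had an FPKM of 7.37, 6.39, 5.30 and 6.08 in the METTL3-HKD livers and of 4.96, 3.37, 3.49 and 4.53 in the METTL3-Flox livers, each from liver 1 to liver 4. The groups did not overlap, and the lowest METTL3-HKD liver lay just above the highest METTL3-Flox liver. The log2 fold change was 0.62 with standard error 0.155 (limma, adjusted p = 0.0303). The call was lost with no mean-variance trend in the fit (adjusted p = 0.0504 from limma) and with single livers left out. Without METTL3-HKD liver 1, 2 or 4 or METTL3-Flox liver 2 or 3 the adjusted p was between 0.0587 and 0.0835 from limma, with log2 fold changes from 0.53 to 0.63.

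**Figure D2:**
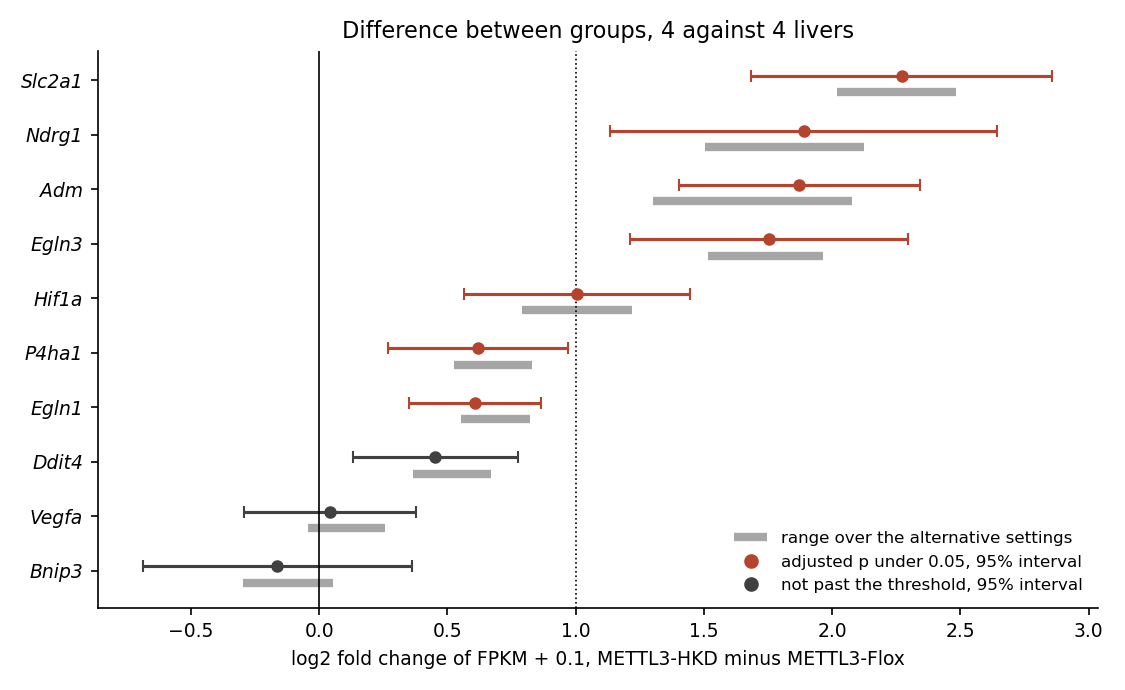
Log2 fold change of each HIF target gene (METTL3-HKD minus METTL3-Flox, on FPKM + 0.1) with its 95% interval from limma, in red where the adjusted p is under 0.05, with the range over 18 alternative settings in grey. The dotted line marks a log2 fold change of 1, and the intervals of Slc2a1, Ndrg1, Adm and Egln3 lie wholly to its right while those of Vegfa and Bnip3 span 0.

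Ddit4, Vegfa and Bnip3 were the most abundant of the 10 genes in both groups and were not called. Ddit4 (ENSMUSG00000020108, chromosome 10, 59949669 to 59951834, minus strand) encodes REDD1, an inhibitor of mTORC1 that hypoxia, glucocorticoids and the integrated stress response can induce. It had an FPKM of 21.4, 15.6, 18.8 and 18.5 in the METTL3-HKD livers and of 15.3, 12.1, 15.8 and 11.2 in the METTL3-Flox livers, each from liver 1 to liver 4. METTL3-HKD liver 2 fell within the METTL3-Flox range and the other METTL3-HKD livers lay above it. The log2 fold change was 0.45, with a 95% interval from 0.13 to 0.78 and an adjusted p of 0.0608 from limma (two-sided exact permutation test, p = 0.0571). With each library scaled to its reads on genes the groups lay apart and the log2 fold change was 0.67 (adjusted p = 0.0163 from limma). That scaling moved all genes upward, to a median log2 fold change of 0.20, and the part of this shift in the call was not tested. The gene also passed with array quality weights (adjusted p = 0.0499 from limma) and among protein-coding genes only (adjusted p = 0.0480 from limma).
Vegfa (ENSMUSG00000023951, chromosome 17, 46016993 to 46032369, minus strand) encodes the vascular endothelial growth factor VEGF-A. It showed an FPKM of 24.4, 16.9, 20.2 and 20.8 in the METTL3-HKD livers and of 19.1, 25.0, 19.4 and 16.6 in the METTL3-Flox livers, each from liver 1 to liver 4. Each group held both high and low livers, and the ranges nearly coincided. The log2 fold change was 0.04 with a 95% interval from -0.29 to 0.38, which corresponds to a ratio between 0.816 and 1.30 (adjusted p = 0.879 from limma, two-sided exact permutation test p = 0.743). Without METTL3-HKD liver 1 the sign turned, at a log2 fold change of -0.044, and likewise without METTL3-Flox liver 4.
Bnip3 (ENSMUSG00000078566, chromosome 7, 138890836 to 138909519, minus strand) encodes a mitochondrial protein of the BH3 kind that takes part in the removal of mitochondria. It had an FPKM of 29.0, 27.6, 48.6 and 47.4 in the METTL3-HKD livers and of 38.2, 57.4, 36.2 and 36.6 in the METTL3-Flox livers, each from liver 1 to liver 4. METTL3-HKD livers 1 and 2 were the lowest of all 8 livers for this gene, and METTL3-HKD livers 3 and 4 lay above 3 of the 4 METTL3-Flox livers. The log2 fold change was -0.16, with a 95% interval from -0.69 to 0.36 (adjusted p = 0.668 from limma, two-sided exact permutation test p = 0.771). With scaling to the reads on genes its sign turned, at a log2 fold change of 0.05, still under the shift of all genes.

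FPKM is scaled per length, so levels can be ordered between genes. In METTL3-Flox mice the order by mean FPKM was Bnip3, Vegfa, Ddit4, Egln1, Hif1a, P4ha1, Slc2a1, Egln3, Ndrg1 and Adm, and the ranges of neighbours overlapped for Egln1 and Hif1a, for P4ha1 and Slc2a1, for Slc2a1 and Egln3 and for Egln3 and Ndrg1. In METTL3-HKD mice the order was Bnip3, Vegfa, Ddit4, Slc2a1, Hif1a, Egln3, Egln1, Ndrg1, P4ha1 and Adm. There the ranges of all neighbours overlapped except those of Bnip3 and Vegfa. Slc2a1 stood at rank 7 in METTL3-Flox mice and rank 4 in METTL3-HKD mice, Egln3 at rank 8 and rank 6, and P4ha1 at rank 6 and rank 9. The 3 genes at the top kept their order.

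The METTL3-HKD livers were not alike. Liver 1 had the highest METTL3-HKD value for 6 of the 10 genes and the lowest for 0, whereas liver 3 had the lowest for 5 and liver 2 for 4. The mean log2 level of the 10 genes was 3.88 in METTL3-HKD liver 1 and 3.43 to 3.57 in METTL3-HKD livers 2 to 4, against 2.51 to 2.71 in the METTL3-Flox livers. Between 7 and 8 of the 10 genes lay above all METTL3-Flox livers in every METTL3-HKD liver. The matching share of all tested genes for a single liver was not computed. The 12.7% given above is for every METTL3-HKD liver at once, a stricter condition. The genes did not share a single order of livers, since liver 2 was highest for Ndrg1 and Adm and lowest for Egln3, and liver 4 was highest for Egln3 and lowest for Egln1.
Markers of some other cell types moved with the groups. Of all tested genes, 9.05% were called higher and 6.63% lower, which is the background for the calls below. The summed FPKM of 10 neutrophil markers was 1640, 384, 334 and 549 in METTL3-HKD livers 1 to 4 and 13.2 to 45.7 in the METTL3-Flox livers. Of these markers, 8 of 10 were called higher by limma, and the most abundant, S100a9, had a mean of 403 FPKM against 13.9 FPKM. For 7 monocyte markers, of which 4 were called higher, the sum was 109 to 307 FPKM against 45.3 to 79.9 FPKM. The 7 Kupffer cell markers gave the reverse order, with 4 called lower and sums of 64.1 to 142 FPKM against 143 to 351 FPKM. Of 5 cholangiocyte markers 4 were called higher, with sums of 119 to 369 FPKM against 52.5 to 77.6 FPKM, most of it from Spp1, which other cells can also express. The sums overlapped between groups for the 8 endothelial markers, at 70.3 to 84.1 FPKM against 76.4 to 86.9 FPKM with 0 called higher and 1 called lower, and for the 7 stellate cell markers, at 33.2 to 46.6 FPKM against 31.7 to 47.2 FPKM with 1 called higher and 2 called lower. The 8 hepatocyte markers, led by Alb, were high in all 8 livers and 0 were called in either direction, while 0 of the 8 had a positive log2 fold change. Their sum was 25541 and 26433 FPKM in METTL3-HKD livers 1 and 2, below all METTL3-Flox livers at 32755 to 38595 FPKM, and 34622 and 37131 FPKM in METTL3-HKD livers 3 and 4. METTL3-HKD livers 1 and 2 were also the highest for Ndrg1 and Adm and the lowest for Bnip3. None of the markers was at 0 reads in all 8 livers. METTL3-HKD liver 1 had both the highest neutrophil sum and the highest mean level of the HIF target genes. In bulk tissue, a change in the number of cells of a type and a change in RNA per cell cannot be told apart. The part of these cell types in the higher levels of the HIF target genes was not tested. Without METTL3-HKD liver 1, the log2 fold changes of Slc2a1, Ndrg1, Adm, Egln3 and Egln1 were 2.05, 1.75, 1.83, 1.65 and 0.57, each still past the adjusted threshold of limma. Without METTL3-HKD liver 2 they were 2.24, 1.71, 1.73, 1.94 and 0.58, also past it.

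**Figure D3:**
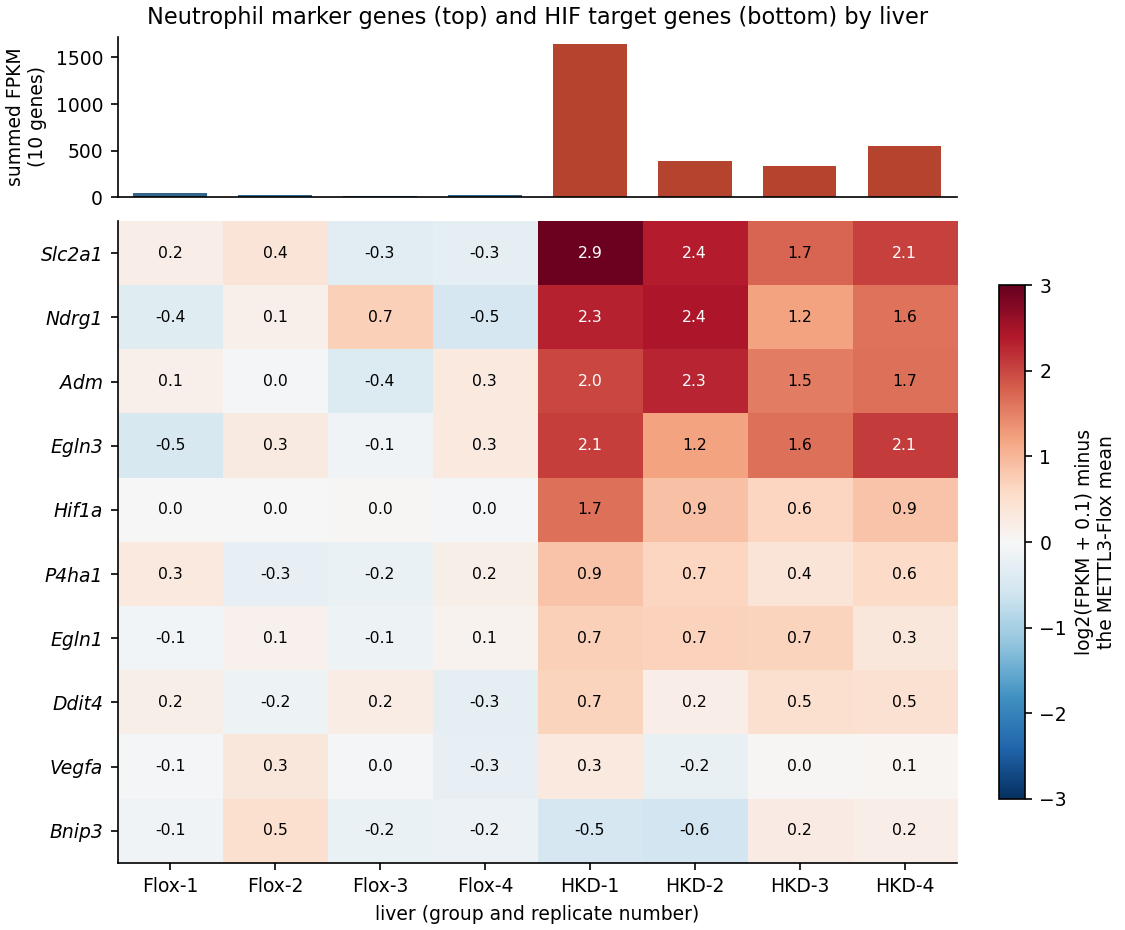
Top, the summed FPKM of 10 neutrophil marker genes in each liver, on an axis that starts at 0. Bottom, log2(FPKM + 0.1) of each HIF target gene in each liver minus the mean of the 4 METTL3-Flox livers, where red is higher and blue is lower. METTL3-HKD liver 1 stands highest at the top with 1640 FPKM and has the deepest red for Slc2a1 and Hif1a, while Bnip3 is blue in METTL3-HKD livers 1 and 2.

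Apart from Hif1a, Egln1 and Egln3, a single gene of the HIF machinery was called. Of 16 genes of subunits, hydroxylases, ligase and coactivators, 14 were tested, 4 were called higher and 0 lower, and without the 3 genes above this was 1 of 11, a share near the 9.05% of all tested genes called higher. That gene was Vhl, the substrate receptor of the ligase, with 7.29 ± 0.764 against 5.26 ± 0.523 FPKM (SD, n = 4 each), log2 fold change 0.46 and an adjusted p of 0.0264 from limma. Its call was lost without METTL3-HKD liver 1 or 2 or METTL3-Flox liver 2, 3 or 4, with adjusted p from 0.0632 to 0.0737 from limma. Epas1, which encodes the alpha subunit HIF-2α, had 34.3 ± 4.95 against 29.3 ± 4.20 FPKM (SD, n = 4 each), log2 fold change 0.23 and an adjusted p of 0.292 from limma. Its groups overlapped, and it remained the more abundant alpha subunit in every liver. The ratio of Hif1a to Epas1 was 0.593, 0.386, 0.249 and 0.398 in METTL3-HKD livers 1 to 4 and 0.288, 0.205, 0.213 and 0.203 in METTL3-Flox livers 1 to 4, so METTL3-HKD liver 3 lay below METTL3-Flox liver 1 (two-sided exact permutation test, p = 0.0571).
Arnt, the beta subunit, had a log2 fold change of -0.11. The hydroxylases Egln2 and Hif1an, the latter an asparaginyl hydroxylase that blocks the coactivators, had values of -0.25 and 0.22. The groups did not overlap for either gene, with METTL3-HKD below METTL3-Flox for Egln2 and above it for Hif1an. Those of Egln2 overlapped once libraries were scaled to reads on genes. The adjusted p of Egln2 was 0.0786 from limma, and 0.0459 without METTL3-Flox liver 2. For Hif1an it was 0.103 from limma, and 0.0451 under scaling to reads on genes, which moved all genes upward. For the ligase subunits Cul2, Elob, Eloc and Rbx1 the log2 fold changes were -0.19, -0.14, 0.29 and -0.06, and for the coactivators Ep300 and Crebbp 0.26 and 0.12, none past the adjusted threshold. The groups of Eloc did not overlap either, with METTL3-HKD above METTL3-Flox, and it passed with 3 of the alternatives, with an adjusted p down to 0.0157 from limma. Of the 4 genes with negative values other than Egln2, all turned positive when libraries were scaled to their reads on genes, still below the median of all genes under that scaling. Hif3a and Arnt2 had a mean under 0.1 FPKM and were not tested, with at most 6 and 3 reads in a METTL3-Flox liver and at most 2 and 11 reads in a METTL3-HKD liver.

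Most, but not all, glycolytic HIF targets were called higher. Of 21 genes 20 were tested, 12 were called higher and 1 lower, against 9.05% and 6.63% of all tested genes, with a median log2 fold change of 1.00, and without Slc2a1 this was 11 higher and 1 lower of 19. The strongest were the lactate transporter gene Slc16a3 at 8.08 ± 6.67 against 0.187 ± 0.164 FPKM (n = 4 each, SD, log2 fold change 4.68) and the glucose transporter gene Slc2a3 at 3.29 ± 3.44 against 0.0759 ± 0.0529 FPKM (n = 4 each, SD, log2 fold change 3.86), both of which neutrophils also express. The size of both depended on the settings, from 2.70 to 5.46 for Slc16a3 and from 1.72 to 5.15 for Slc2a3, lowest with a pseudocount of 1 FPKM. Pkm (pyruvate kinase) and Aldoa (aldolase A) had log2 fold changes of 1.98 and 0.94. These 4 genes and Slc2a1 were highest in METTL3-HKD liver 1.
Among the 3 glycolytic genes with a mean over 100 FPKM, Pgk1 was called higher and Ldha and Tpi1 were not called. Ldha had 497 ± 48.1 against 572 ± 160 FPKM (n = 4 each, SD) and Tpi1 had 151 ± 16.0 against 175 ± 14.0 FPKM (n = 4 each, SD), neither past the threshold, and both changed sign with scaling to the reads on genes. Under that scaling both stayed below the median of all genes. Pgk1 had 180 ± 11.4 against 136 ± 14.6 FPKM (n = 4 each, SD, log2 fold change 0.41, adjusted p = 0.0343 from limma). Its call was lost without METTL3-HKD liver 1, 2 or 4 or METTL3-Flox liver 3 or 4, with adjusted p from 0.0639 to 0.0974. Over all 18 alternatives Pgk1 passed in only 10. Aldoc (aldolase C) was the gene called lower, at 1.57 ± 0.738 against 3.63 ± 0.748 FPKM (n = 4 each, SD, log2 fold change -1.25, adjusted p = 0.0302 from limma). It lost the call without METTL3-HKD liver 1 or 2 or METTL3-Flox liver 2, 3 or 4, with adjusted p from 0.0654 to 0.0775. The number of glycolytic genes called fell from 13 to 8 without METTL3-Flox liver 3 and to 8 without METTL3-Flox liver 4. Several of these enzymes have processed pseudogenes that can share their reads, so their levels are uncertain. Gapdh, named after its value was seen, was listed at only 0.557 to 1.12 FPKM in the METTL3-Flox livers and at 0.978 to 1.22 FPKM in METTL3-HKD livers 2 to 4, with 19.5 FPKM in METTL3-HKD liver 1 alone.

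The remaining HIF targets were called higher in part. Of 37 genes 33 were tested, 15 were called higher and 1 lower, against 9.05% and 6.63% of all tested genes, with a median log2 fold change of 0.58, and without the 6 genes described above this was 12 higher and 1 lower of 27. Cxcr4, a chemokine receptor gene that leukocytes also express, had a log2 fold change of 3.62, and Edn1, the gene of the vasoconstrictor endothelin 1, one of 1.82. Edn1 rested on 5 to 8 reads per METTL3-Flox liver. Its log2 fold change ran from 0.69 to 2.20 over the 17 alternatives in which it was tested, and that of Cxcr4 from 2.28 to 3.88. Ero1a, an oxidase of disulfide formation in the endoplasmic reticulum, had 12.7 ± 4.13 against 4.29 ± 0.313 FPKM (n = 4 each, SD, log2 fold change 1.50). Igfbp1, a secreted binding protein of insulin-like growth factors made by hepatocytes, ranged from 84.6 to 440 FPKM in METTL3-HKD mice and from 23.2 to 65.4 FPKM in METTL3-Flox mice (log2 fold change 2.05, adjusted p = 0.0265 from limma), and lost the call without METTL3-HKD liver 2 or METTL3-Flox liver 2 or 4, with adjusted p from 0.0603 to 0.0664. Plod1, a collagen lysyl hydroxylase gene, was called lower at 7.90 ± 0.523 against 10.9 ± 0.783 FPKM (n = 4 each, SD, log2 fold change -0.46, adjusted p = 0.0132 from limma). With scaling to the reads on genes its log2 fold change was -0.25 and the call was lost.

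**Figure D4:**
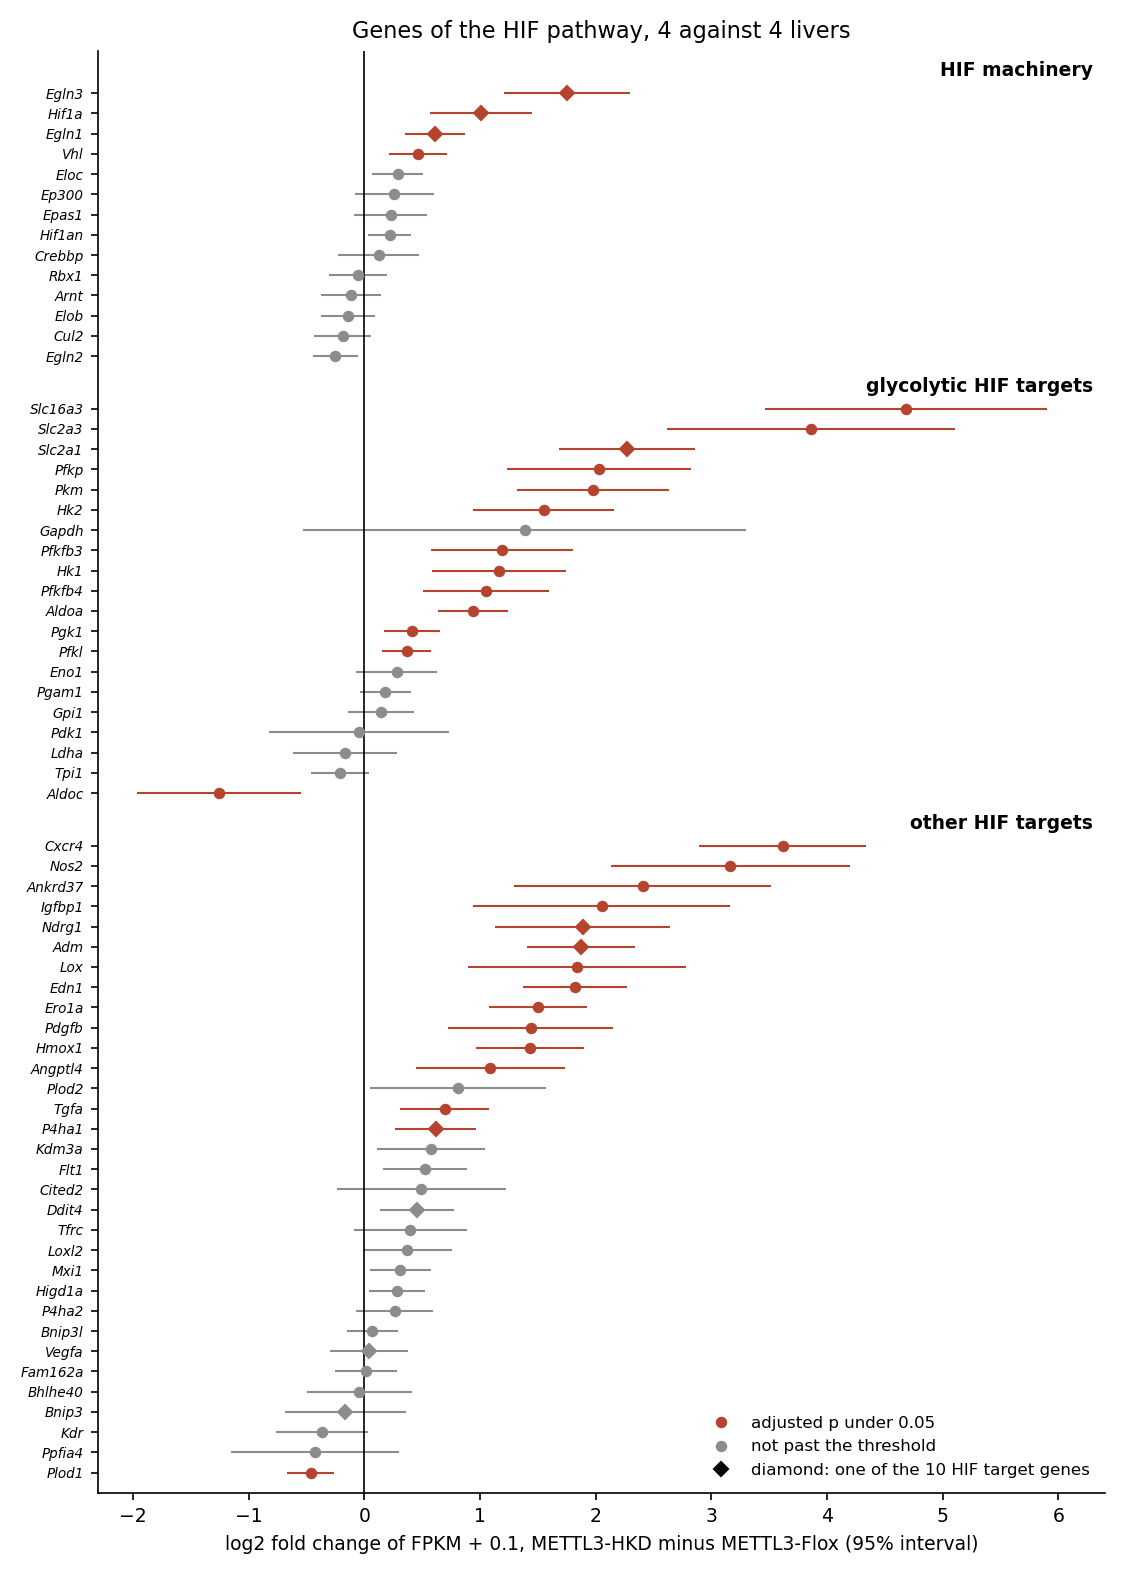
Log2 fold change (METTL3-HKD minus METTL3-Flox, on FPKM + 0.1) and 95% interval from limma of the tested genes of the lists of HIF machinery (14 genes), glycolytic HIF targets (20 genes) and other HIF targets (33 genes, of which 1 is not drawn), in red where the adjusted p is under 0.05, with diamonds for the 10 HIF target genes. Red points lie mostly to the right of 0, up to 4.68 for Slc16a3, with Aldoc and Plod1 to its left.

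Exons of 4 of the 10 genes share bases with another annotated gene. The overlap covers 22.3% of the exon bases of Bnip3, with a gene listed at 0 FPKM, and 2.99% for Slc2a1, with an antisense gene at 0.214 and 0.121 FPKM (group means). For Hif1a it covers 5.60% with an antisense gene of 0.240 and 0.103 FPKM (group means) and 2.51% with a gene on the same strand listed at 0 FPKM. For Ndrg1 the antisense overlaps cover 2.08% and 6.35%, with genes at or near 0 FPKM. Since the strand setting is not given in the sources used here, reads of the pairs on opposite strands cannot be told apart in the shared bases. For the pair on the same strand, the strand setting could not separate them. Adm, Ddit4, Egln1, Egln3, P4ha1 and Vegfa share none.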

How the data were processed

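Livers of 8 mice, 4 in each group of the sample labels, were sequenced with a SMARTer mRNA-Seq kit. The authors deposited FPKM for 54532 genes with the length used for each gene. The build is GRCm38 (mm10) per the submitters' processing notes, and aligner, counter, annotation and strand setting are not given in the sources used here. FPKM times length came in steps of 1 read for 100% of the low values (tolerance 0.02), which gave 15861245 to 18434488 reads on genes per liver. The authors' effective library sizes differ from these totals, so the FPKM carry a scaling between libraries. Relative to their geometric mean these sizes were 1.06 to 1.18 in METTL3-HKD livers and 0.835 to 0.950 in METTL3-Flox livers. This scaling thus separates the groups, whereas the reads on genes overlap between them. FPKM were compared as log2(FPKM + 0.1), over 16645 genes whose mean reached 0.1 FPKM, with limma 3.58.1 (lmFit, eBayes with trend) in R 4.3.3 and Benjamini-Hochberg adjustment. Calls had an adjusted p under 0.05. A log2 fold change of at least 1 was counted beside it. Exact permutation tests covered 70 arrangements (scipy 1.17.1, Python 3.11.15). Fold changes are on the log2(FPKM + 0.1) scale, which understates the change of low genes.

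The 10 genes, the 3 pathway lists and the marker lists were chosen with earlier results of these data known. Named beside the 10 genes were Mettl3, the machinery list, and from the other lists the 5 genes with the smallest adjusted p in each direction and any with a mean over 100 FPKM. Of these, 1 is not reported here. Ero1a was matched through its older symbol, and of 2 rows named Aldoa the more abundant was used. For 27 genes a date stood in place of the symbol and was replaced by identifier. Replicates are mice, and no batch is named. Alternatives changed the pseudocount (1 FPKM), the filter (a mean of 1 FPKM, or none), the scaling (median-of-ratios, or reads on genes) or the fit (voom on the rebuilt reads, a replicate block, array quality weights, or no trend), kept protein-coding genes alone, or left out each liver. The median-of-ratios factor was 1.0063 in every liver, so the scaling in the deposited FPKM had already made the livers even by this measure. That alternative divided all livers alike and could hardly differ from the main fit. The fit was tested on simulated data.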

Additional observations from a re-analysis of the deposited data

Results flagged for a closer look

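A gap test (Dixon) marked a liver that lay far from the other 3 of its group in 11 of 72 groups of 4 livers, and chance marks about 1 in 20 groups. Among the 10 HIF target genes this was Bnip3, at 57.4 FPKM in METTL3-Flox liver 2 with the nearest liver at 38.2 FPKM. In METTL3-HKD liver 1, the highest values were 87.5 FPKM for Aldoa, 8.43 FPKM for Slc2a3 (nearest 1.85 FPKM), 49.6 FPKM for Pkm (nearest 21.8 FPKM) and 18.9 FPKM for Ero1a (nearest 11.2 FPKM). METTL3-Flox liver 1 was lowest for Epas1 at 23.0 FPKM and for Crebbp at 1.22 FPKM, and highest for Vhl at 6.03 FPKM and for Rbx1 at 12.2 FPKM. Arnt was highest in METTL3-HKD liver 3, at 4.49 FPKM, and Egln2 was lowest in METTL3-Flox liver 2, at 22.2 FPKM.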

How the results depend on the processing

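Over 18 alternatives, 6 to 8 of the 10 HIF target genes were called higher and 0 lower, and 4 to 5 also reached a log2 fold change of 1. Slc2a1, Ndrg1, Adm, Egln3, Egln1 and Hif1a passed the adjusted threshold in each. Of 647 values of single genes, 598 kept direction and side of the threshold, 29 lost the call, 8 gained it and 12 changed sign. The values kept include those of the median-of-ratios alternative, which divided all livers by the same factor and was bound to repeat the main fit closely. With the replicate number as a block, 1616 genes were called (971 higher, 645 lower) against 2610 (1506 and 1104). Same-numbered livers deviated together with correlations of -0.0838 to 0.0711, so the numbers were not taken to pair the livers. The block kept 7 of the 10 genes called and Pgk1 lost its call (limma, adjusted p = 0.0863). Scaling to reads on genes gave 2309 higher and 374 lower genes, 133 of the lower ones past both thresholds, and 0 other HIF targets lower. Under it the log2 fold change was 0.053 for Bnip3, 0.047 for Mettl3, 0.099 for Arnt, 0.026 for Cul2, 0.074 for Elob, 0.16 for Rbx1, 0.0045 for Tpi1 and 0.050 for Ldha. This scaling moved all genes upward, to a median of 0.20, and each of these values lay below that median. Without a minimum level, 682 genes were lower, 163 of them past both thresholds, and 0 glycolytic genes were lower. A pseudocount of 1 FPKM left 317 higher and 88 lower genes past both thresholds, and a minimum mean of 1 FPKM left 450 higher. Beyond the upward shift of all genes under scaling to reads on genes, the cause of these changes was not tested.

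Omission of each liver in turn gave 1102 to 2807 called genes, 747 to 1659 higher and 355 to 1148 lower, with 492 to 960 higher and 94 to 341 lower past both thresholds. It gave 8 to 13 glycolytic genes called, 0 to 1 of them lower, and 0 to 1 machinery genes lower. The log2 fold change ranged from -0.044 to 0.15 for Vegfa, from -0.11 to 0.043 for Rbx1 and from -0.0053 to 0.18 for Crebbp. Omissions for the ratios were added after seeing the data, and the difference stayed at 0.455 to 0.756 for Egln3 over Egln1 and 0.117 to 0.232 for Hif1a over Epas1. With 4 livers a group, p-values measure the spread between these mice only, and Adm in METTL3-Flox mice rests on 18 to 33 reads.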
